A study of Caenorhabditis elegans with 2 samples.

Results

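The genes described here encode the factors that start and extend protein chains and the enzymes that load tRNAs. They were taken by name from the Ensembl annotation of the WBcel235 genome: 31 protein-coding genes whose names begin with eif- or eef- (translation factors), and 32 whose names are a letter followed by ars- and a number (aminoacyl-tRNA synthetases). These 63 genes are set against all 19973 protein-coding genes of the nuclear chromosomes, to which they belong. A gene counted as bound where the summit of a peak of the optimal list, the authors' set of reproducible peaks, lay between 1000 bp upstream and 200 bp downstream of any of its annotated 5′ ends, a stretch called its promoter here. A translation factor promoter was bound in 8 of 31 genes and a synthetase promoter in 2 of 32, against 777 of 19973 among all protein-coding genes.

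The peaks come from chromatin immunoprecipitation and sequencing of whole Caenorhabditis elegans larvae at the L2 stage, of both sexes mixed. Strain OP178, with genotype unc-119(ed3) III and wgIs178, carries a transgene that produces the stress-response transcription factor SKN-1 fused to GFP and FLAG, so the protein measured is an added, tagged copy. The strain, antibody and note fields all name SKN-1, and only the free-text description of both libraries names another protein, PHA-4, the forkhead factor of pharynx development. There were 2 biological replicates and no second condition, so all comparisons below are between genes within the same worms, and whole larvae do not show in which cells a promoter was bound.

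Initiation factors of the eIF2, eIF2B and eIF3 families bring the initiator tRNA and the small ribosomal subunit to the start codon, and the elongation factors eEF1 and eEF2 then deliver each loaded tRNA and move the ribosome along the message. Aminoacyl-tRNA synthetases join each amino acid to its own tRNA, with separate or shared enzymes for the cytoplasm and the mitochondria. In C. elegans, lowering the activity of translation initiation is known to switch on protective genes that depend on SKN-1. In worms many neighbouring genes lie head to head with a short stretch between their 5′ ends, and others lie in runs on the same strand that can be transcribed together as operons.

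Parts of 5 of the bound promoters are printed because the summit lies in them and because they show which of 2 words are present or missing. They were read from the WBcel235 genome of RefSeq, on the strand of the named gene, up to 50 bases to each side of the summit and stopped where a transcript begins. The base under the summit is base 51 of each. Capitals mark 2 words: the pentamer core of SKN-1 sites (ATCAT or GTCAT, or ATGAT or ATGAC when read on the other strand), and GCAACGA, a word found by the search described in the closing observations. GCAACGA was picked from windows around these same summits, so its presence here does not make it a binding site.
eef-1A.1, chrIII:6972049-6972149, minus strand: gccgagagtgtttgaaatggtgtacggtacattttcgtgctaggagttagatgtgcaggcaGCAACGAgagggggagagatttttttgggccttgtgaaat
eef-1G, chrV:10965627-10965718, plus strand: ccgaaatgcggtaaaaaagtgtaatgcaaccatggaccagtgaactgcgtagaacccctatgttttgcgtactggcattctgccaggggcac
eif-3.B, chrII:14795116-14795216, plus strand: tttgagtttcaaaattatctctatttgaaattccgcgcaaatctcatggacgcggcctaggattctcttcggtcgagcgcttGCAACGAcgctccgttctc
ears-2, chrIV:390469-390557, minus strand: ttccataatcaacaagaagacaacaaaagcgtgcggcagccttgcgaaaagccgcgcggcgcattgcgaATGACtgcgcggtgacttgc
mars-1, chrIV:11635714-11635814, minus strand: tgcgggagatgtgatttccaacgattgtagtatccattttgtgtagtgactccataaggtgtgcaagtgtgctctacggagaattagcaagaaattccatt
Of these 5 stretches, ears-2 held the core of a SKN-1 site, eef-1A.1 and eif-3.B held GCAACGA, and eef-1G and mars-1 held neither word.

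The deposited data are ranked peak lists. The optimal list holds 872 peaks, and all of them were also the 872 strongest of the 13302 peaks called on both replicates pooled. The lists of the pooled libraries, of replicate 1 (24771 peaks) and of replicate 2 (28630 peaks) are relaxed lists that contain background peaks by design, with q-values up to 0.960, against a largest q of 0.00531 in the optimal list. Each peak has a signal, the caller's enrichment on the scale of its own list, with medians of 54.2 in the optimal list, 11.3 in replicate 1 and 5.23 in replicate 2. Signals were therefore compared within a list and ranks, with 1 the strongest, between lists. Signals and ranks of peaks are the authors' values or orderings of them.

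Optimal summits stood at a larger share of translation factor promoters than of all promoters, and at a share of synthetase promoters near that of all promoters. In the optimal list 8 of 31 translation factor promoters (25.8%, exact 95% interval 11.9 to 44.6%) and 2 of 32 synthetase promoters (6.25%, 0.766 to 20.8%) held a summit, against 3.89% of all protein-coding genes. The intervals cover the counting of genes only. Those of the translation factors and the synthetases overlapped, and neither this difference nor any other share below was tested, since genes are not replicates of a condition. The bound translation factor promoters had signals of 45.7 to 104 with a median of 64.0, and the bound synthetase promoters 54.3 and 73.1, against a median of 55.2 over all 777 bound genes.

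The replicates differed in how many translation factor promoters they ranked high. Among the 872 strongest peaks of replicate 1, 8 translation factor and 2 synthetase promoters held a summit, against 3.8% of all genes. Among the 872 strongest of replicate 2, 5 translation factor and 3 synthetase promoters did, against 3.62% of all genes. In both replicates at once, 4 translation factor and 2 synthetase promoters were among the 872 strongest peaks, against 2.06% of all genes. The 4 translation factor genes were eef-1A.1, eef-1G, eif-6 and eif-3.C, and the synthetase genes were ears-2 and mars-1.

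**Figure D1:**
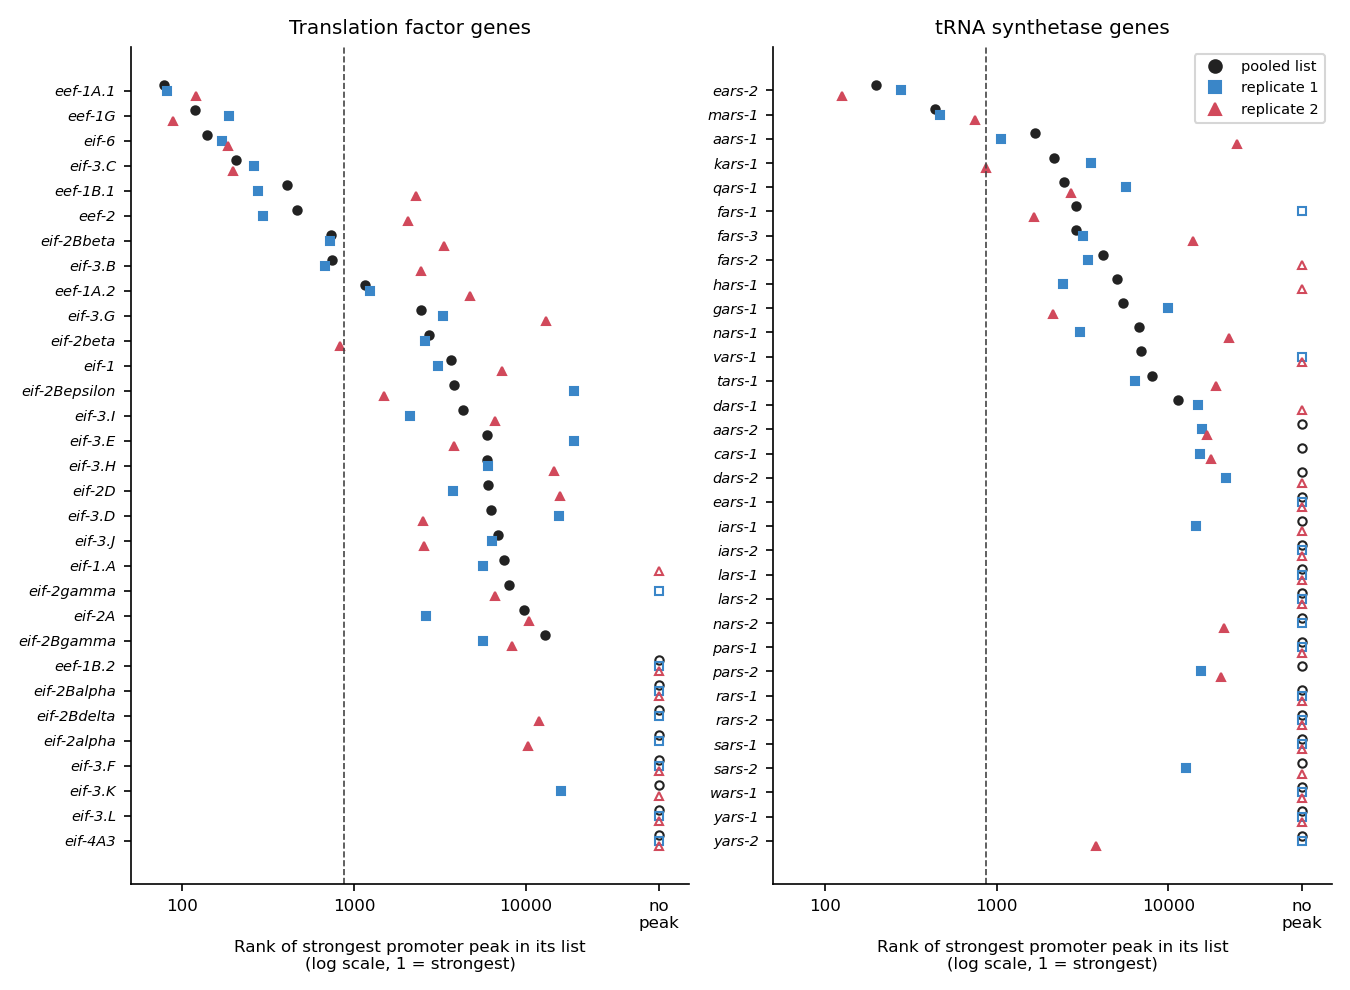
Rank of the strongest promoter peak of each of the 31 translation factor genes (left) and 32 tRNA synthetase genes (right) in the pooled list (circles), replicate 1 (squares) and replicate 2 (triangles), on a log axis with 1 the strongest; open symbols at the right mark no promoter peak and the dashed line marks rank 872. Pooled ranks left of the line belong to 8 translation factor and 2 synthetase genes, and the replicate 2 symbols of eef-1B.1, eef-2, eif-2Bbeta and eif-3.B lie to its right, at ranks 2299, 2070, 3343 and 2468.

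Elongation factors were bound at 4 of 6 genes, against 3.89% of all genes, and held the 2 strongest promoter peaks of the 63 genes. All 4 summits were shared with a gene on the opposite strand, where 192 of all 588 promoter summits were shared between genes. Of the 6 genes, eef-1A.1 and eef-1G were among the 872 strongest peaks of replicate 2, against 3.62% of all genes. The strongest stood at eef-1A.1, which encodes eEF1A, the carrier of loaded tRNA to the ribosome: its summit at position 6972099 of chromosome III lay 387 bp upstream of the 5′ end. Its signal was 72.5 in replicate 1 (rank 81), 30.9 in replicate 2 (rank 120) and 104 in the optimal list (rank 78). It was among the strongest peaks of each library. The second copy, eef-1A.2, which encodes a nearly identical protein, was not bound in the optimal list. Its promoter peak had rank 1154 in the pooled list (signal 39.0), 1248 in replicate 1 and 4758 in replicate 2. It lay outside the optimal list, whose lowest signal was 43.2.

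The subunits of the complex that recharges eEF1A with GTP were bound at 2 of 3 genes, against 3.89% of all genes. At eef-1G, the gamma subunit, the summit lay 42 bp upstream of the 5′ end at position 10965677 of chromosome V, with a signal of 53.2 in replicate 1 (rank 186) and 35.6 in replicate 2 (rank 88). Both libraries ranked it high, and in replicate 2 it was the highest-ranked promoter peak of all 63 genes. At eef-1B.1, a beta or delta subunit, the summit at position 7973383 of chromosome III lay 3 bp inside the transcript, in its 5′ UTR. Its signal was 45.1 in replicate 1 (rank 276) and 10.9 in replicate 2 (rank 2299), so this peak was strong in replicate 1 and modest in replicate 2. The related gene eef-1B.2 had no promoter peak in any list.

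At eef-2, which encodes the factor that moves the ribosome forward, the peak spanned 9163334 to 9163673 on chromosome I and its summit lay 27 bp upstream of the 5′ end. The signal was 44.2 in replicate 1 (rank 296) and 11.3 in replicate 2 (rank 2070), and the replicate 2 summit lay 151 bp from the optimal one. Over the 10 bound members the summits of replicate 1 lay within 36 bp of the optimal summit, and 151 bp was the largest distance in replicate 2.

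Genes named as initiation factors were bound at 4 of 25, against 3.89% of all genes, with members of the same complex on both sides of the threshold. The strongest was eif-6, whose product keeps the large ribosomal subunit from joining too early and takes part in making it. Its peak at 12968448 to 12968787 of chromosome I had a signal of 54.7 in replicate 1 (rank 170) and 26.1 in replicate 2 (rank 184), with the summit 328 bp upstream. Both replicates placed it among their strongest peaks.

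Of the 11 genes named for eIF3, the multisubunit scaffold on the small ribosomal subunit, 2 were bound, against 3.89% of all genes. Subunits with other names are not among the 11. They were eif-3.C and eif-3.B. At eif-3.C the peak (9979754 to 9980093 on chromosome I, summit 262 bp upstream) had a signal of 45.8 in replicate 1 (rank 263) and 25.6 in replicate 2 (rank 197). At eif-3.B the summit lay 238 bp upstream at position 14795166 of chromosome II, with a signal of 34.0 in replicate 1 (rank 674) and 10.6 in replicate 2 (rank 2468). The eif-3.C peak ranked alike in both libraries, and the eif-3.B peak ranked far higher in replicate 1. Promoter peaks of 8 of the 11 eIF3 genes appeared in the pooled list, against 29.2% of all genes. The genes eif-3.F and eif-3.L had none in any list.

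None of the 3 subunits of eIF2, the carrier of the initiator tRNA, was bound in the optimal list. With 3.89% of all genes bound, 3 genes are too few to read anything from this. The promoter peak of eif-2beta had rank 827 in replicate 2 (signal 15.5) and rank 2584 in replicate 1. Of the 5 subunits of eIF2B, which recharges eIF2 with GTP, 1 was bound, against 3.89% of all genes. This was eif-2Bbeta, at 11893699 to 11894038 of chromosome I. Its signal was 33.1 in replicate 1 (rank 721) and 9.50 in replicate 2 (rank 3343), with the summit 142 bp upstream of its 5′ end. Together with eif-3.B, it was the weakest of the bound members, at optimal signals of 46.0 for eif-2Bbeta and 45.7 for eif-3.B. After eef-1A.2, the translation factor genes nearest to the threshold without an optimal peak were eif-3.G (pooled rank 2451, signal 29.2), eif-2beta (2743, 27.9) and eif-1 (3668, 24.6), the last a factor of start codon selection.

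Bound synthetase genes were a mitochondrial and a cytoplasmic enzyme. At ears-2, the mitochondrial glutamate enzyme, the summit at position 390507 of chromosome IV lay 39 bp upstream of the 5′ end, with a signal of 45.1 in replicate 1 (rank 277) and 30.5 in replicate 2 (rank 125). At mars-1, the cytoplasmic methionine enzyme that also loads the initiator tRNA, the summit at position 11635764 of the same chromosome lay 277 bp upstream, with a signal of 38.1 in replicate 1 (rank 468) and 16.0 in replicate 2 (rank 749). Both peaks were among the 872 strongest of each replicate. By RefSeq product names, 1 of 10 cytoplasmic, 1 of 4 mitochondrial and 0 of 18 enzymes of unstated compartment were bound, against 3.89% of all genes. Groups this small do not allow a comparison between compartments.

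The 4 synthetase genes next below the threshold had different ranks in the replicates. The promoter peak of aars-1 (alanine, mitochondrial) had pooled rank 1663 (signal 33.7), with rank 1063 in replicate 1 and 25256 in replicate 2. That of kars-1 (lysine) had pooled rank 2155 (signal 30.8), with rank 3536 in replicate 1 and 869 in replicate 2. Next came qars-1 (glutamine), at pooled rank 2467, with rank 5682 in replicate 1 and 2731 in replicate 2. It was followed by fars-1 (phenylalanine), at pooled rank 2887, with rank 1651 in replicate 2 and no promoter peak in replicate 1.

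Most members without an optimal promoter summit lay more than 5 kb from the nearest optimal summit. The same distances over all genes are not given here, so the distances below are not read as a trait of the members. For the 23 such translation factor genes the nearest optimal summit lay at a median of 44194 bp from a 5′ end, and within 5 kb for 0 of them. For the 30 such synthetase genes the median was 31410 bp, and 2 had a summit within 5 kb. These were aars-1, at 3942 bp, and wars-1 (tryptophan), with a summit 4209 bp away inside the gene itself. No promoter peak in the pooled list or in either replicate was found for 5 of 31 translation factor and 10 of 32 synthetase genes. Among all protein-coding genes the same held for 8484 of 19973, a larger share than in either group. The translation factor genes were eef-1B.2, eif-2Balpha, eif-3.F, eif-3.L and the helicase gene eif-4A3. The synthetase genes were ears-1, iars-2, lars-1, lars-2, pars-1, rars-1, rars-2, sars-1, wars-1 and yars-1.

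In the relaxed lists, translation factor promoters stood above all genes at every depth, and synthetase promoters closer to them. The pooled list held a promoter summit for 23 translation factor genes (74.2%) and 14 synthetase genes (43.8%), against 29.2% of all genes. Replicate 1 held a promoter summit for 23 translation factor and 18 synthetase genes, against 41% of all genes. Replicate 2 did so for 24 translation factor and 15 synthetase genes, against 43.5% of all genes. A summit in at least 1 of the 3 relaxed lists was found for 26 translation factor and 22 synthetase genes, against 57.5% of all genes. A summit in both replicates was found for 21 translation factor and 12 synthetase genes, against 27.2% of all genes.

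Each gene was also placed on a scale of 0 to 100 by its strongest promoter peak among all protein-coding genes, with genes without a peak sharing the lowest place. The median translation factor gene stood at 82.2 in the pooled list, 83.7 in replicate 1 and 82.3 in replicate 2. The median synthetase gene stood at 35.4 in the pooled list, 69.0 in replicate 1 and 28.3 in replicate 2. The median over all genes stood at 35.4 in the pooled list, 29.5 in replicate 1 and 28.3 in replicate 2. The synthetase value in the pooled list and in replicate 2 is that of genes without a peak, since most of the 32 had none there. Along the pooled ranking, the 218 strongest peaks marked 4 translation factor and 1 synthetase promoters among 208 genes in all, and the 3488 strongest marked 11 translation factor and 7 synthetase promoters among 2446.

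**Figure D2:**
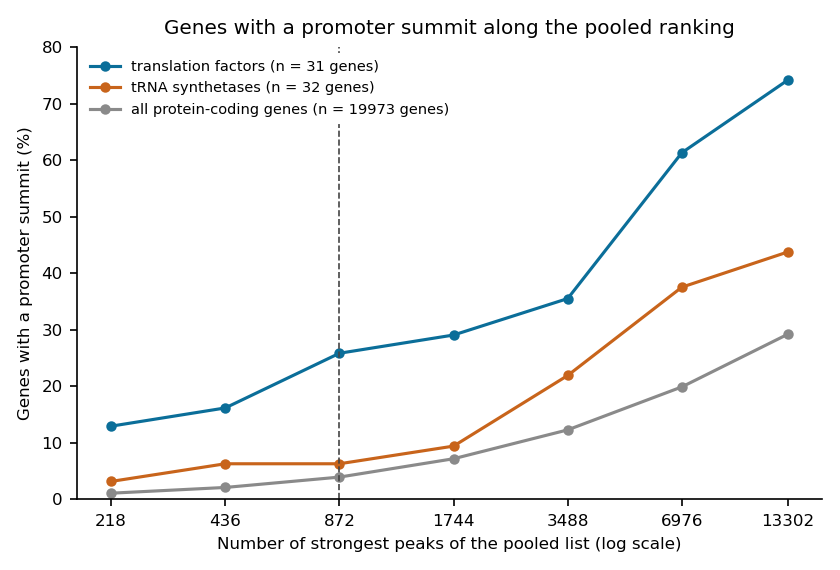
Percentage of the 31 translation factor genes, 32 tRNA synthetase genes and all 19973 protein-coding genes with a promoter summit (vertical axis) among the strongest peaks of the pooled list (horizontal axis, log scale); the dashed line marks the 872 peaks of the optimal list. The translation factor curve lies above the others at all 7 points, and ends at 74.2%, against 43.8% for synthetases and 29.2% for all genes.

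Most bound members shared their peak with a gene on the opposite strand. Of the 10 summits, 8 (80%) lay in the promoter of another protein-coding gene too, 6 of 8 for translation factors and 2 of 2 for synthetases, against 192 of all 588 promoter summits (32.7%). The partner of eef-1A.1 was rfc-4, a subunit of the clamp loader of DNA replication, whose 5′ end lay 154 bp from the summit and nearer than that of eef-1A.1. The others were ctf-4 (138 bp from the eef-1G summit), pbs-2, a proteasome subunit (338 bp from that of eif-6), aco-2, mitochondrial aconitase (334 bp from that of eef-1B.1), and clsp-1 (238 bp from that of eef-2). At eif-2Bbeta the partner Y47H9C.8 was the nearer gene, at 62 bp. The synthetase summits were shared with uncp-18 (53 bp from that of ears-2) and F58B3.6 (884 bp from that of mars-1). For these 8 peaks the lists do not tell which gene, or whether both, is served by the bound site. Counting only summits in the promoter of 1 gene, a choice made after seeing the data, left 2 of 31 translation factor genes (6.45%) and 0 of 32 synthetase genes, against 392 of all genes (1.96%).

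**Figure D3:**
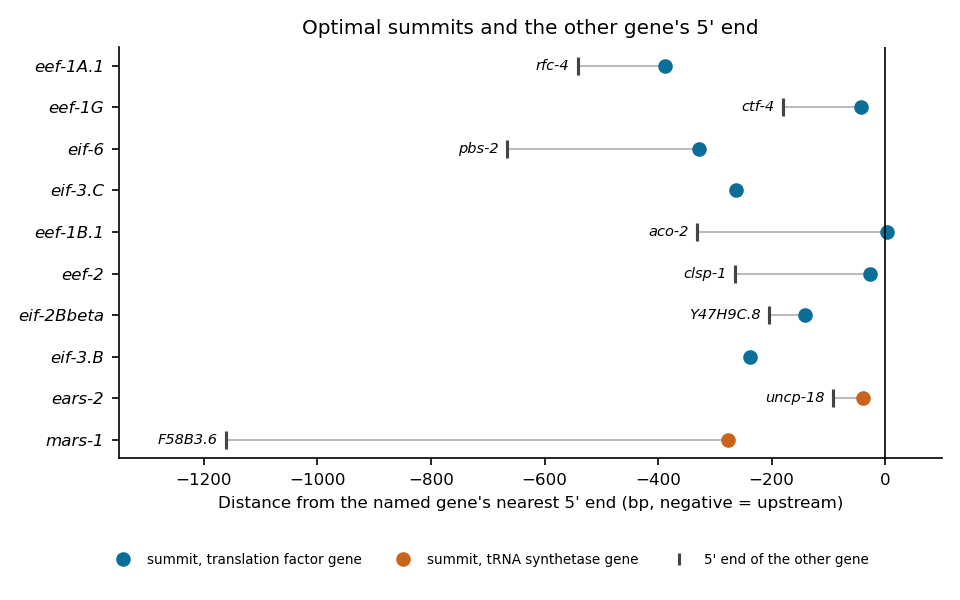
Position of the optimal summit (circle) at each of the 8 translation factor and 2 tRNA synthetase genes bound, in bp from the nearest 5′ end of the named gene (vertical line at 0), with the 5′ end of the other gene that shares the summit (tick). Of the 10 summits, 9 lie upstream, at a median of 190 bp over all 10, and 8 have a partner gene further upstream on the other strand.

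A head-to-head neighbour was found for a larger share of the members than of all genes. Neighbours that overlapped the 5′ end were counted as upstream too. A protein-coding gene lay upstream on the opposite strand, within 1000 bp, for 17 translation factor genes (54.8%) and 12 synthetase genes (37.5%), against 21.3% of all genes. Of these, 6 of 17 translation factor and 1 of 12 synthetase genes were bound, against 19 of 49 ribosomal protein genes (38.8%) and 346 of 4250 (8.14%) among all genes so arranged. Among the 872 strongest peaks of replicate 2, 3 of the 17 translation factor genes kept a summit (eef-1A.1, eef-1G and eif-6). In any arrangement 3.62% of all genes held one there, and the share of all genes so arranged was not counted. The count of 6 thus rests in part on replicate 1. A gene on the same strand ended within 500 bp upstream, or overlapped the 5′ end, for 6 translation factor and 11 synthetase genes (34.4%), against 20.5% of all genes. In that arrangement, as in the middle or end of an operon, 1 of 6 translation factor and 0 of 11 synthetase genes were bound, against 102 of 4103 (2.49%). The bound gene of the 6 was eif-3.C, behind sys-1. The promoter of the first gene of such a run was bound for 0 of the 6 translation factor and 1 of the 11 synthetase genes, against 341 of 4103 (8.31%). The synthetase gene was gars-1, named after its value was seen, in a run that starts with prp-19, whose promoter peak had a signal of 61.5. The number of 5′ ends, which widens a promoter, had a median of 1 for translation factors, 2 for synthetases and 1 for all genes. The mean promoter length covered was 1410 bp for translation factors, 1701 bp for synthetases and 1459 bp for all genes.

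**Figure D4:**
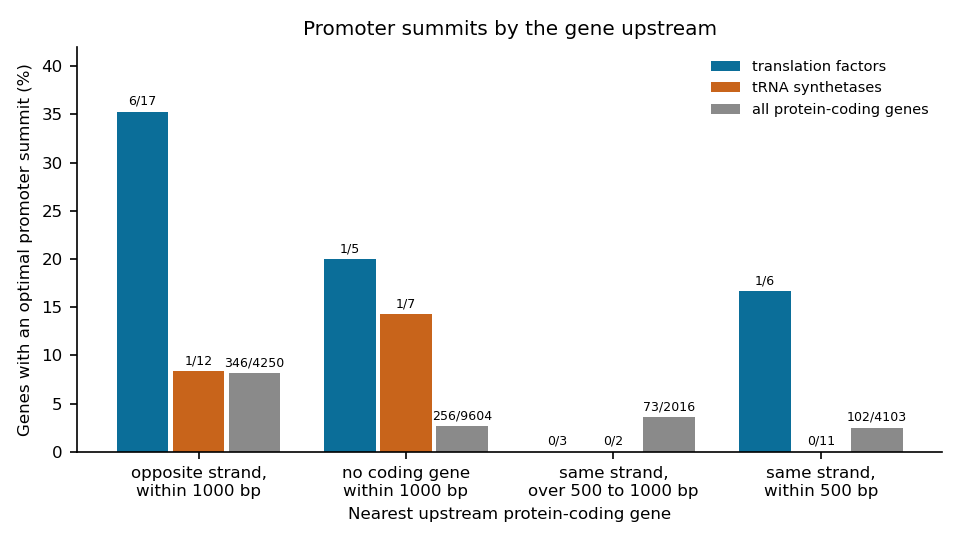
Percentage of genes with an optimal promoter summit (vertical axis, from 0) by the position of the nearest upstream protein-coding gene (horizontal axis), for translation factors, tRNA synthetases and all protein-coding genes; numbers above bars are bound genes over genes so arranged. Translation factor genes with an opposite-strand neighbour reach 6 of 17, against 1 of 12 synthetase genes and 346 of 4250 of all genes.

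The full SKN-1 word was not found within 100 bp of the members' summits, in a set of only 10 windows. This word, read as A or T, A or T, T, A or G, then TCAT (AATATCAT and TTTGTCAT are examples), occurred on either strand within 100 bp of 0 of 10 member summits. It occurred at 152 of all 588 promoter summits (25.9%) and in 11.2% of windows of the same 201 bp just upstream of the 5′ ends of all 19973 genes. Among all promoter summits within the members' range of signal it occurred at 112 of 458 (24.5%), and among summits shared by promoters of neighbouring genes at 43 of 192 (22.4%). Its core, ATCAT or GTCAT, which is contained in the full word, was found at 3 of 8 translation factor and 1 of 2 synthetase summits (eef-1A.1, eef-1B.1, eif-6 and ears-2), against 394 of 588 (67.0%). The core occurred in 54.3% of the windows upstream of all genes.

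Of the other words searched on both strands, 4 were found at no member summit. For the rarer of these words, 10 windows are too few to tell such a count from the share at all promoter summits. The GATA-factor word TGATAA was at 0 of 10 member summits, against 200 of 588 (34.0%) and 22.8% of windows upstream of all genes. The words GAGAGAGA, CTGCGTC and ATGATGA were each at 0 of 10, against 5.27%, 12.2% and 20.7% of all promoter summits, and 2.73%, 3.25% and 5.43% of the upstream windows. A forkhead word for PHA-4, TGTTTAC or TGTTTGC, was at 2 of 8 translation factor summits (eif-6 and eef-1B.1) and 0 of 2 synthetase summits, against 88 of 588 promoter summits and 8.72% of upstream windows. None of these 7 words was found at 6 of the 10 member summits, against 119 of 588 (20.2%). ATGATGA and the core can overlap, since ATGAT is the core read on the other strand. The median GC content of the windows was 41.3% at the member summits, with a range of 29.4 to 48.3%, against 38.3% at all promoter summits. The part of base composition in these counts was not tested.

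**Figure D5:**
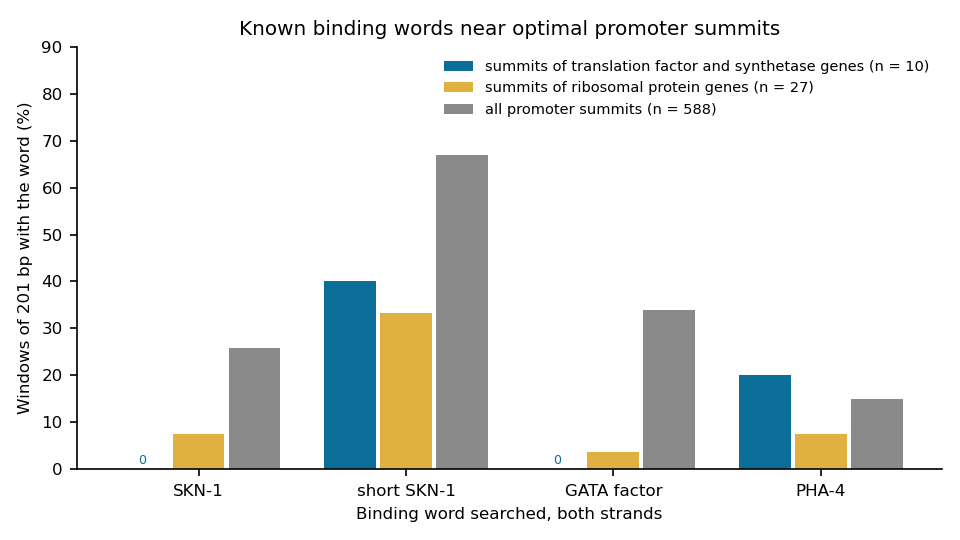
Percentage of 201 bp windows centred on optimal promoter summits that hold each of 4 binding words on either strand (vertical axis, from 0), for the 10 summits of translation factor and synthetase genes, 27 summits of ribosomal protein genes and all 588 promoter summits. The full SKN-1 and GATA-factor words are at 0 of the 10 summits, against 25.9% and 34.0% of all promoter summits.

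Further translation genes that the name rule leaves out were bound at a share near that of all genes. Of 38 such names listed, 32 matched an annotated gene. Of these, 2 were bound in the optimal list (6.25%), against 3.89% of all genes. They were iff-2 (signal 123, rank 54) and drr-2 (signal 85.6, rank 131). The product of iff-2 is eIF5A, which acts in elongation and termination despite its name, and drr-2 encodes a relative of the initiation factor eIF4H. The pooled list held a promoter summit for 19 of the 32, against 29.2% of all genes. The kinase gene rsks-1 came next below the threshold at pooled rank 943. The 78 ribosomal protein genes, whose products make up the ribosome with its RNA, were bound at 28 promoters (35.9%), against 3.89% of all genes. Their 27 summits were also mostly shared with a neighbour (20 of 27), against 192 of all 588 promoter summits. The SKN-1 word was at 2 of those 27 summits, against 152 of 588. The GATA-factor word was at 1 of the 27, against 200 of 588.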

How the data were processed

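Chromatin immunoprecipitation with sequencing was carried out on 2 biological replicates, numbered in the labels. Per the readme deposited with each library, a replicate's relaxed peak list was made from its own alignments and a further file common to the replicates, taken here as control; the optimal list was made from the relaxed lists. The aligner, the caller, its filters and the reproducibility cutoff were not given in the sources used here. With every peak the authors deposited a signal, which is the caller's enrichment, and a −log10 q-value. Read depth is unknown here. The ce11 lists were used, with Ensembl release 115 and the RefSeq genome of WBcel235, and product names from RefSeq matched all 63 genes.

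The summit was taken as the peak start plus the deposited offset, in 1-based coordinates. A summit in several promoters counted for each gene. No test was run: genes are not replicates, and intervals are exact Clopper-Pearson 95% intervals over genes. The members, the words and the list of further translation genes were chosen with earlier results of these data known. Named are all bound members, the 4 highest-ranked other genes of each group, genes with no promoter peak in any list and genes sharing a named summit. The script for assigning summits was tested on simulated data. Alternatives were each replicate's own list, other thresholds, promoter windows, assignment rules and word windows, plus 2 added after seeing the data. Software was Python 3.11 with numpy 2.4.6 and scipy 1.17.1.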

Additional observations from a re-analysis of the deposited data

How the results depend on the processing

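Of 48 alternative values, 35 stayed within 1.5 times the count or the spread between replicates, and 13 moved. The translation factor count of 8 was 5 among the 436 strongest optimal peaks, and 5 to 8 when a replicate was left out, with replicate 2 alone losing eef-1B.1, eef-2, eif-2Bbeta and eif-3.B and gaining eif-2beta. Restricting to summits in the promoter of 1 gene, an alternative chosen after seeing the data, left 2 translation factor genes (eif-3.B and eif-3.C) and 0 synthetase genes, against 392 of all genes. The synthetase count of 2 was 2 to 3 when a replicate was left out. The count of 777 over all genes was 411 among the 436 strongest peaks, 1426 with a list 2 times as long, and 724 to 758 with a replicate left out. Assigning each summit to the nearest 5′ end alone left 6 translation factor and 2 synthetase genes, against 578 of all genes (2.89%). Counting the first promoter of a close same-strand run as well was also chosen after seeing the data. It gave 8 translation factor and 3 synthetase genes, against 1082 of all genes (5.42%).

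The median percentile of 82.2 for translation factors was 82.3 to 83.7 when a replicate was left out and 86.3 with promoters of 500 bp upstream to 100 bp downstream. That of the synthetases, 35.4, was 28.3 to 69.0 when a replicate was left out, so it rests on which replicate is used. The full SKN-1 word came within 150 bp of 1 of 8 translation factor summits, against 179 promoter summits (30.4%) over all genes. The shorter word was at 3 translation factor and 1 synthetase summits. The causes were not tested. Read depth is unknown, so a promoter without a peak cannot be called unbound.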

Other observations

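All 8192 words of 7 bases were counted, both strands together, within 100 bp of the 10 member summits. Among those at 5 or more of the 10, GCAACGA differed most in share from all promoter summits. It was at 5 of 8 translation factor summits (eef-1A.1, eef-1B.1, eif-3.B, eif-3.C and eif-6) and 0 of 2 synthetase summits, against 26 of 588 promoter summits (4.42%) and 1.84% of the windows upstream of all genes. The word was at 1 of 27 ribosomal protein summits and upstream of 2 of the 53 members without an optimal peak. In all 5 it was written on the strand of the translation factor gene, with its centre 14 to 62 bp from the summit. The word was picked from the same windows in which it is counted, so these shares describe the search and were not tested. The printed stretches of eef-1A.1 and eif-3.B hold 1 copy each.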
